A study of Sus scrofa with 50 samples.

Results

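Chaperones bind unfolded or partly folded proteins and help them reach their native form, and the genes described here encode the main chaperones of the cytosol, the mitochondrion and the endoplasmic reticulum (ER) together with the sensors that adjust them to demand. The 33 genes were chosen by name and found by NCBI Gene ID among the 30321 identifiers of the expression tables. They comprise 11 cytosolic heat shock proteins and partners, 3 mitochondrial chaperones, 10 ER chaperones and cochaperones, 4 protein disulfide isomerases (PDIs), and a group of 5 made up of the unfolded protein response sensors and the transcription factor XBP1. The RNA of 50 single porcine embryos was measured, each as a library of its own, with Smart-seq2, which amplifies polyadenylated RNA to full-length cDNA. Embryos produced in vitro (5 at the 4-cell stage, 10 morulae and 10 hatched blastocysts) grew from oocytes of abattoir ovaries that were matured, fertilized and cultured in the laboratory, with 4-cell embryos and morulae collected 48 and 100 h after fertilization. Embryos developed in vivo (again 5, 10 and 10) were flushed 2, 4 and 6 days after insemination from hormone-synchronized German Landrace × Pietrain gilts, and all were sired by a Duroc boar. By the collection times in the methods, the in vitro hatched blastocysts were over 1 day older, counted from fertilization, than the in vivo ones counted from insemination. Per the methods, in vitro 4-cell embryos and morulae came from preselected 2-cell embryos. Morulae and hatched blastocysts were labelled male or female, with both sexes in each of these groups, and 4-cell embryos had no labelled sex. The source of an embryo therefore combines several differences, which cannot be told apart. They are the mother, the hormone treatment, the fertilization, the preselection, the age at collection and the surroundings of the embryo. Gilts and in vitro experiments are not given per embryo, so p-values measure the spread between embryos, some of which may share a gilt or an experiment.

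When unfolded proteins build up in the cytosol, the factor HSF1 raises the transcription of heat shock proteins. In the ER the same condition is read by 3 kinds of sensor, ATF6, IRE1 (encoded by ERN1 and ERN2) and PERK (encoded by EIF2AK3). IRE1 starts the splicing of XBP1 mRNA, and spliced XBP1 and cleaved ATF6 raise the transcription of ER chaperones such as HSPA5, whereas PERK phosphorylates the translation factor eIF2 alpha and thereby favours the translation of ATF4. Early embryos first use proteins and RNA stored in the oocyte and then transcribe their own genome, and the outer cells of the blastocyst become the trophectoderm, a secretory epithelium.

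Values are counts per 1000000 reads (CPM) on the effective library size, as the authors deposited them, and 49 embryos had 4195985 ± 1289683 reads assigned to genes (SD), with a range of 1438600 to 7714790. Under 2000000 reads were found in 3 embryos, D3 and E4 among the in vitro hatched blastocysts and F1 among the in vivo morulae. Defining markers fitted the stage labels: the 12 oocyte transcripts summed to a median of 16377 CPM in vitro and 11984 CPM in vivo at the 4-cell stage, but to 6.38 and 3.87 CPM in hatched blastocysts, in which the 12 trophectoderm markers had their highest median sums of the 3 stages. The in vivo 4-cell embryo C1 stood apart, with 6209 genes above 0 against up to 13520 in its group, as did the in vitro morula B2, whose oocyte transcripts summed to 2082 CPM against a group median of 173 CPM. The study compared the sources with each other at the hatched blastocyst stage only, where their cDNA and coverage profiles were alike. The in vitro against in vivo values for 4-cell embryos and morulae given below carry that limit. A transcript level in a whole embryo does not tell fewer cells of a type from less RNA per cell.

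HSP90AA1, the stress-inducible cytosolic HSP90, was listed at 0 CPM in all 50 embryos. In the RefSeq table of Sscrofa11.1 it is not placed on a chromosome, and all 2124 identifiers without a chromosome were listed at 0 in every embryo, against 11% of the identifiers on chromosomes, so its 0 is not read as a level. The other 32 genes passed the filter on low values in every comparison. Of these, 9 overlap another annotated gene, and Smart-seq2 reads carry no strand that could separate the overlapping genes. ERN2, the IRE1 form of mucosal epithelia, shares 59 bases with PLK1, a mitotic kinase, and averaged 23.1 CPM in in vitro and 15.1 CPM in in vivo 4-cell embryos, where PLK1 averaged 84.0 and 84.2 CPM. In hatched blastocysts ERN2 averaged 3.93 CPM in vitro and 6.36 CPM in vivo, and PLK1 11.9 and 17.5 CPM. HSP90B1 shares 8430 of its 19504 bases with C5H12orf73, which averaged 38.9 CPM in in vitro and 66.8 CPM in in vivo morulae. In hatched blastocysts C5H12orf73 averaged 74.7 CPM in vitro and 101 CPM in vivo. P4HB shares 179 bases with LOC110255936. The latter averaged 5.94 CPM in vitro and 7.84 CPM in vivo in morulae, and 20.7 and 27.4 CPM in hatched blastocysts. The part of reads of PLK1, C5H12orf73 and LOC110255936 in the values of ERN2, HSP90B1 and P4HB was not tested. Members of the HSPA and HSP90 families resemble each other in sequence, and the treatment of reads with several matches is not given in the sources used here.

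**Figure D1:**
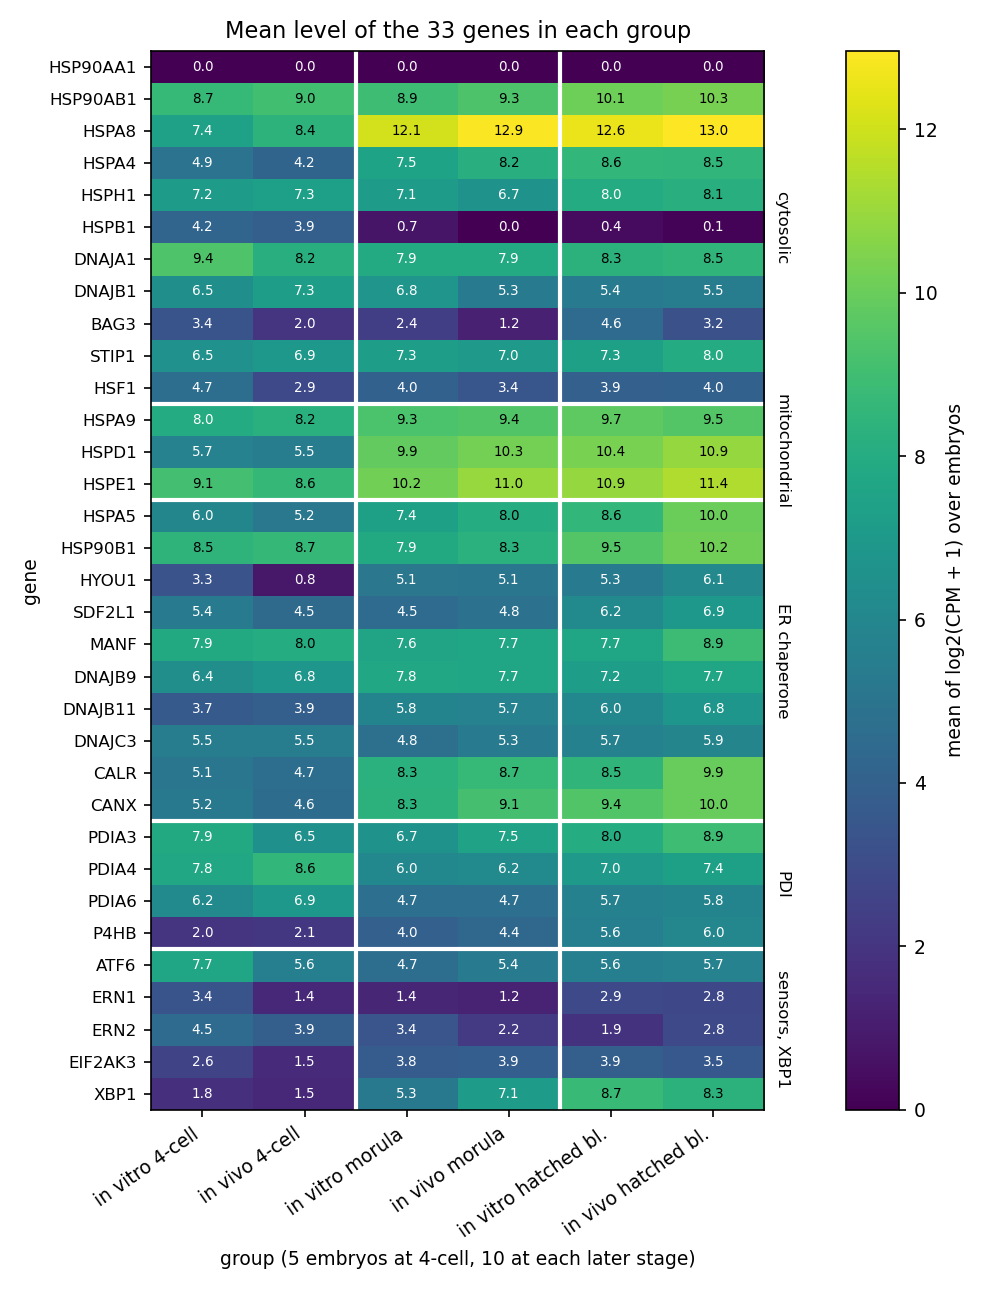
Mean of log2(CPM + 1) of each of the 33 genes (rows, by role) in each of the 6 groups (columns, in vitro left of in vivo at each stage). HSPA8 and HSPD1 were low in 4-cell embryos and high from the morula on, XBP1 climbed over all 3 stages, HSPB1 was near 0 after the 4-cell stage and HSP90AA1 was at 0 throughout.

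Between the 4-cell stage and the morula, the mitochondrial chaperonin HSPD1 with HSPE1, the HSP70 proteins HSPA8 and HSPA4, the ER lectins CALR and CANX and the factor XBP1 rose in both sources, while the small heat shock protein HSPB1 and the disulfide isomerase PDIA4 fell in both. A gene was called changed where its p in a limma fit of log2(CPM + 1), adjusted by the Benjamini-Hochberg method over all genes tested, was under 0.001 and its log2 difference exceeded 1 in size. That is a scale that understates changes of genes with few CPM. Where groups are said not to overlap, the share of all genes tested without overlap was not determined. Such statements describe the named genes only. In vitro, 11 of the 32 genes were called higher and 6 lower in morulae, when 16% of all genes tested were called higher and 22.7% lower. In vivo, 9 were called higher and 2 lower, against 14.9% and 7.86% of all genes tested. The in vivo counts carry the limit on the RNA of in vivo 4-cell embryos given above. Of the genes called higher, 8 were the same in both sources, 8 of 11 in vitro and 8 of 9 in vivo, and both genes called lower in vivo were also called lower in vitro. The share of calls common to both sources was not determined over all genes tested, so this overlap is not read as particular to the 32 genes. The median log2 difference of the 32 genes was 0.28 in vitro, against −0.14 for all genes tested, and 0.48 in vivo, against 0.21 for all genes tested.

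HSPA8 (chromosome 9, 49982278 to 49986760), the constitutive HSP70 that folds newly made proteins, was among the genes with the largest rise. In vitro it had 305, 115, 253, 117 and 134 CPM in the 4-cell embryos, 2499 to 7731 CPM in morulae with a median of 4545, and 4775 to 7446 CPM in hatched blastocysts with a median of 6253. In vivo it had 238, 526, 508, 243 and 280 CPM in the 4-cell embryos, 4244 to 13852 CPM in morulae with a median of 7820, and 5376 to 11178 CPM in hatched blastocysts with a median of 7899. Every morula lay above every 4-cell embryo of its source. The log2 difference of morulae from 4-cell embryos was 4.64 (SE 0.27, adjusted p = 1.32e-11 by limma) in vitro and 4.5 (SE 0.35, adjusted p = 3.66e-09 by limma) in vivo. The later step was not called, with log2 differences of 0.50 in vitro and 0.07 in vivo.

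In vitro, HSPA4, an HSP110 type partner that exchanges the nucleotide of HSP70, averaged 30.9 ± 9.72 CPM at the 4-cell stage (SD, n = 5), 186 ± 48 CPM (n = 10) in morulae and 393 ± 85.0 CPM in hatched blastocysts. It rose at the first step in both sources, by 2.55 in vitro and 4.02 in vivo on the log2 scale. The related HSPH1 was called at the second step in vivo only, at 1.45, against 0.87 in vitro, and the difference between these steps was not called (−0.59, adjusted p = 0.315 by limma). The in vivo call of HSPH1 was lost by edgeR (1.10, adjusted p = 0.00937) and DESeq2 (1.05, adjusted p = 0.00847). HSP90AB1, the constitutive cytosolic HSP90, was called higher in hatched blastocysts than in morulae in vitro, at 1.18, and had 1.0 in vivo with an adjusted p of 0.00474 by limma. The in vitro call was lost after scaling to the column total (0.76, adjusted p = 0.00529 by limma) and by DESeq2, where 0.99 missed the limit on size.

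HSPB1 (chromosome 3, 10038074 to 10039441), a small heat shock protein that holds unfolded clients without ATP, was almost confined to 4-cell embryos. In vitro these had 18.4, 25.5, 21.8, 11.3 and 13.8 CPM, morulae 0 to 12.7 CPM with a median of 0.314, and hatched blastocysts 0 to 0.955 CPM with a median of 0.352. In vivo the 4-cell embryos had 17.6, 15.8, 13.6, 15.95 and 8.98 CPM, all 10 morulae were at 0, and hatched blastocysts had 0 to 0.935 CPM with a median of 0. The in vitro morula F1 alone, at 12.7 CPM, reached the range of its 4-cell group. A limit of 3 reads in the shallowest in vivo morula, 1.85 CPM, makes the level there at least 7.78-fold lower than the 4-cell mean, for counting error only. The first step was called in vitro (−3.48) and in vivo (−3.91), but the in vitro call was lost in count tests of recovered reads, with adjusted p = 0.00568 by edgeR and 0.0160 by DESeq2.

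BAG3, the cochaperone that hands clients of HSP70 to autophagy, was low until the hatched blastocyst. In vitro it had 15.2, 5.71, 8.23, 10.9 and 9.27 CPM in 4-cell embryos, 0.854 to 18.4 CPM in morulae with a median of 4.23, and 4.87 to 62.2 CPM in hatched blastocysts with a median of 19.4. The in vivo 4-cell embryos had 10.9, 0, 15.6, 4.37 and 0 CPM, with 0 to 9.11 CPM in morulae with a median of 1.10, and 1.74 to 27.7 CPM in hatched blastocysts with a median of 8.15. The groups overlapped, with 5 of 10 in vitro hatched blastocysts above all in vitro morulae. The second step was called in vitro (2.13, SE 0.40, adjusted p = 9.00e-05 by limma) and was of like size but not called in vivo (2.02, SE 0.51, adjusted p = 0.00368 by limma).

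The cytosolic HSP40 cochaperones DNAJA1 and DNAJB1, which deliver clients to HSP70, each fell at 1 step in vitro. DNAJA1 fell at the first step in vitro, with a mean of 252 ± 82.3 CPM (SD, n = 10) in morulae and 703 ± 224 CPM (n = 5) in 4-cell embryos, and DNAJB1 fell at the second step in vitro, with 43.4 ± 13.6 CPM in hatched blastocysts and 131 ± 103 CPM in morulae (n = 10 each). DNAJB1 was not called once D3 and E4 were left out (−1.30, adjusted p = 0.00128 by limma). STIP1, which links HSP70 to HSP90, and the factor HSF1 were called in no comparison, with group means of 103 to 267 CPM and 11.9 to 25.3 CPM.

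The chaperonin HSPD1 (chromosome 15, 101360355 to 101373498) and its lid HSPE1, encoded by neighbouring genes, fold proteins of the mitochondrial matrix. In vitro HSPD1 had 105, 58.2, 57.9, 24.2 and 44.6 CPM in 4-cell embryos, 584 to 1295 CPM in morulae with a median of 869, and 940 to 1717 CPM in hatched blastocysts with a median of 1312. In vivo it had 48.3, 44.0, 41.2, 41.2 and 50.03 CPM in 4-cell embryos, 847 to 2076 CPM in morulae with a median of 1025, and 1439 to 2189 CPM in hatched blastocysts with a median of 1988. No morula overlapped a 4-cell embryo, and the log2 difference was 4.12 (SE 0.27) in vitro and 4.73 (SE 0.31) in vivo. HSPE1 rose at this step as well, by 1.11 in vitro and by 2.34 in vivo, but its in vitro call was lost without the 4-cell embryo A1, B1, D1 or E1, at adjusted p values of 0.00164 to 0.00274 by limma. The mitochondrial HSP70, HSPA9, was called in vitro (1.28) and not in vivo (1.20, adjusted p = 0.00763 by limma). None of the 3 was called at the second step, although all 3 estimates were positive in both sources.

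Calls among the ER chaperones came at both steps. At the first step CALR, CANX and HYOU1 rose in both sources, DNAJB11 only passed the limits in vitro and HSPA5 only in vivo. At the second step HSPA5, HSP90B1 and SDF2L1 rose in both. The median log2 difference of the 10 ER genes was 1.38 in vitro and 1.34 in vivo at the first step. At the second it was 0.55 in vitro and 1.15 in vivo, when all genes tested had medians of −0.11 in vitro and 0.01 in vivo. After scaling to the column total, the first step had 1.53 in vitro and 0.80 in vivo. The second then had 0.13 in vitro, with 5 of 10 estimates positive, and 0.99 in vivo, with 9 of 10. The second step of the ER genes as a group in vitro thus depended on the scale.

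CANX (chromosome 2, 78879031 to 78915828), the membrane-bound lectin that retains glycoproteins until they are folded, had 70.5, 75.8, 15.5, 16.6 and 45.2 CPM in in vitro 4-cell embryos, 214 to 430.1 CPM in morulae with a median of 325, and 541 to 916 CPM in hatched blastocysts with a median of 684. In vivo it had 51.4, 54.0, 0, 47.7 and 60.0 CPM in 4-cell embryos, 379 to 1377 CPM in morulae with a median of 540.2, and 725 to 1472 CPM in hatched blastocysts with a median of 965. The 0 belongs to C1, the 4-cell embryo with the fewest genes. The first step amounted to 3.09 (SE 0.32) in vitro and 4.54 (SE 0.72) in vivo, without overlap in either source. By edgeR the in vivo rise of CANX (adjusted p = 0.00113) and that of HYOU1 (adjusted p = 0.00214) were not called.

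HSPA5 (also BiP; chromosome 1, 265930044 to 265934959), the HSP70 of the ER and the master regulator of its stress sensors, varied between 4-cell embryos. In vitro these had 147, 225, 85.7, 18.9 and 15.3 CPM, morulae 73.4 to 573 CPM with a median of 149, and hatched blastocysts 254 to 649 CPM with a median of 408. In vivo the 4-cell embryos had 26.4, 30.5, 7.13, 46.1 and 203 CPM, morulae 127 to 777 CPM with a median of 207, and hatched blastocysts 504 to 1943 CPM with a median of 1007. The stages overlapped in each source, and the in vitro morula of 573 CPM is B2. The first in vivo step (2.84, adjusted p = 0.000722 by limma) was no longer called without the in vivo 4-cell embryo A1, B1, C1 or D1 (adjusted p = 0.00154 to 0.00273), nor by edgeR (0.0205), by DESeq2 (0.00996) or after scaling to the column total (0.00838). The second step was 1.23 (SE 0.27, adjusted p = 0.000499 by limma) in vitro, a call lost without the hatched blastocysts D3 and E4 (1.09, adjusted p = 0.00329), by edgeR (0.00190), by DESeq2 (0.00547) and in a fit over all 6 groups (0.0184), and 2.0 (SE 0.33, adjusted p = 3.85e-05) in vivo.

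HSP90B1 (also GRP94), the HSP90 of the ER, was called at the second step alone. It had 629, 441, 248, 204 and 372 CPM in in vitro 4-cell embryos, 112 to 354 CPM in morulae with a median of 265, and 558 to 1009 CPM in hatched blastocysts with a median of 740. In vivo it had 293, 837, 205, 330 and 630 CPM in 4-cell embryos, 166 to 1160 CPM in morulae with a median of 242, and 748 to 1804 CPM in hatched blastocysts with a median of 1160. In vitro every hatched blastocyst lay above every morula, at a log2 difference of 1.62 (SE 0.20). In vivo 5 of 10 did, at 1.87 (SE 0.30), and the in vivo morulae G1 and B2 had 1160 and 885 CPM.

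SDF2L1, a partner of the ER DNAJ cochaperones, followed the same course at the second step. In vitro it had 66.2, 64.2, 32.2, 24.0 and 32.6 CPM in 4-cell embryos, 6.84 to 37.9 CPM in morulae with a median of 26.05, and 30.6 to 125 CPM in hatched blastocysts with a median of 67.6. The in vivo 4-cell embryos had 28.3, 32.1, 2.90, 28.3 and 46.4 CPM, with 8.63 to 78.4 CPM in morulae with a median of 28.7, and 49.2 to 244 CPM in hatched blastocysts with a median of 124. Of the hatched blastocysts, 9 of 10 in vitro and 8 of 10 in vivo exceeded all morulae of their source, and the step was 1.63 (SE 0.26) in vitro and 2.05 (SE 0.39) in vivo. Among the other ER members, DNAJB9, which assists HSPA5 in restraining IRE1, and DNAJC3, which inhibits PERK, were called in no comparison, but DNAJB9 came close at the first step in vitro (1.35, adjusted p = 0.00107 by limma) and was called there by edgeR and DESeq2.

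The PDIs, which form and rearrange disulfide bonds, had calls in both directions at the first step and only higher ones at the second. PDIA4 fell from the 4-cell stage to the morula, by 1.72 on the log2 scale in vitro and by 2.45 in vivo, without overlap in either source. P4HB rose in vitro (2.02), and had 2.28 with an adjusted p of 0.00141 by limma in vivo. PDIA6 had −1.45 in vitro and −2.20 in vivo, neither called. PDIA3, the partner of CALR and CANX, fell in vitro (−1.19, adjusted p = 0.000940 by limma), a call lost without the 4-cell embryo A1, B1, C1 or D1 at adjusted p values of 0.00112 to 0.00587. At the second step all 4 estimates were positive in both sources, between 0.94 and 1.61 in vitro and between 1.13 and 1.61 in vivo, and 2 of 4 were called in each: PDIA3 and P4HB in vitro, PDIA4 and P4HB in vivo. The in vivo call of P4HB was lost by edgeR (1.39, adjusted p = 0.00141). After scaling to the column total, the in vivo calls of P4HB (adjusted p = 0.00205 by limma) and PDIA4 (0.00172) were lost. The in vitro call of PDIA3 was lost after that scaling (0.92) and in a fit over all 6 groups (adjusted p = 0.0452 by limma).

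None of the sensors was called higher at the first step. ATF6, whose values are printed because of the difference seen between sources, had 278, 248, 176, 135 and 223 CPM in in vitro 4-cell embryos. In vitro morulae had 9.01 to 57.4 CPM, a fall of 3.0 on the log2 scale (limma, adjusted p = 3.34e-08). The in vivo estimate was −0.23, and the difference between sources was not called (−2.77, adjusted p = 0.0271 by limma). In vivo the 4-cell embryo C1 had 0.445 CPM, below every in vivo morula, at 23.9 to 64.7 CPM. The other 4 in vivo 4-cell embryos had 52.5 to 175 CPM, so the in vivo estimate depended on C1. ERN1 fell at the first step in vitro (−2.01) and rose at the second in vitro (1.48) and in vivo (1.56), at group means of 1.57 to 10.8 CPM. The first of these calls was lost without the in vitro 4-cell embryo A1, B1, D1 or E1 (adjusted p = 0.00145 to 0.00369 by limma), and the in vitro rise without the hatched blastocysts D3 and E4 (1.36, adjusted p = 0.00241), while edgeR called the later rise in neither source (adjusted p = 0.00502 in vitro and 0.00333 in vivo). ERN2 and EIF2AK3 were called in neither step. EIF2AK3, at group means of 5.31 to 17.6 CPM, had positive estimates at the first step, 1.12 in vitro (adjusted p = 0.0196 by limma) and 2.36 in vivo (adjusted p = 0.0129 by limma), and the in vivo one was called in a fit over all 6 groups (adjusted p = 2.91e-05).

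XBP1 (chromosome 14, 46011239 to 46016526) showed the widest course of the 32 genes. In vitro it had 6.48, 0.659, 1.70, 3.15 and 2.39 CPM in 4-cell embryos, 16.1 to 124 CPM in morulae with a median of 34.3, and 304 to 549 CPM in hatched blastocysts with a median of 440.2. In vivo it had 0, 20.1, 0, 6.84 and 0 CPM in 4-cell embryos, 31.5 to 330.4 CPM in morulae with a median of 162, and 274 to 494 CPM in hatched blastocysts with a median of 293. In each source every morula exceeded every 4-cell embryo, and in vitro every hatched blastocyst exceeded every morula, while in vivo 3 of 10 did. The first step was 3.48 (SE 0.43) in vitro and 5.62 (SE 0.73) in vivo. The values do not tell spliced from unspliced XBP1 mRNA.

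The second step of XBP1 differed between the sources. It was 3.47 (SE 0.26, adjusted p = 5.69e-11 by limma) in vitro and 1.23 (SE 0.32, adjusted p = 0.00546) in vivo, and the difference of 2.24 (SE 0.44, adjusted p = 0.000272) was the 1 call among the 32 genes, against 1.79% of all genes called higher and 2.7% called lower. The sources lay further apart in morulae: XBP1 averaged 45.1 ± 33.5 CPM in in vitro morulae and 166 ± 90.3 CPM in in vivo morulae (SD, n = 10 each), whereas in hatched blastocysts it averaged 429 ± 85.1 CPM in vitro and 325 ± 71.8 CPM in vivo. Trophectoderm markers moved with it. They summed to 1309 to 2944 CPM in in vitro morulae and 2252 to 10160 CPM in in vivo morulae, 5 of 12 were called higher and 0 lower in the same difference of steps, and their part in the XBP1 result was not tested. Without the 3 embryos under 2000000 reads (in vitro D3 and E4, in vivo F1) the difference was 2.20 at an adjusted p of 0.00104, just past the limit, and in a fit over all 6 groups its adjusted p was 0.00642. At the earlier step 0 of 32 genes differed between the sources by limma, and 0 by edgeR and by DESeq2, against 0.372% of all genes called higher and 2.8% called lower by limma. An unadjusted p under 0.05 was reached by 8 of the 32, and by 32.4% of all genes tested. HYOU1, a chaperone of the HSP110 family in the ER, had the estimate nearest to the limits (−2.43, adjusted p = 0.00145 by limma), and was called without the in vivo 4-cell embryo D1 (−2.74, adjusted p = 0.000208) or E1 (−2.74, adjusted p = 0.000375), the only embryos of that group with reads of it.

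**Figure D2:**
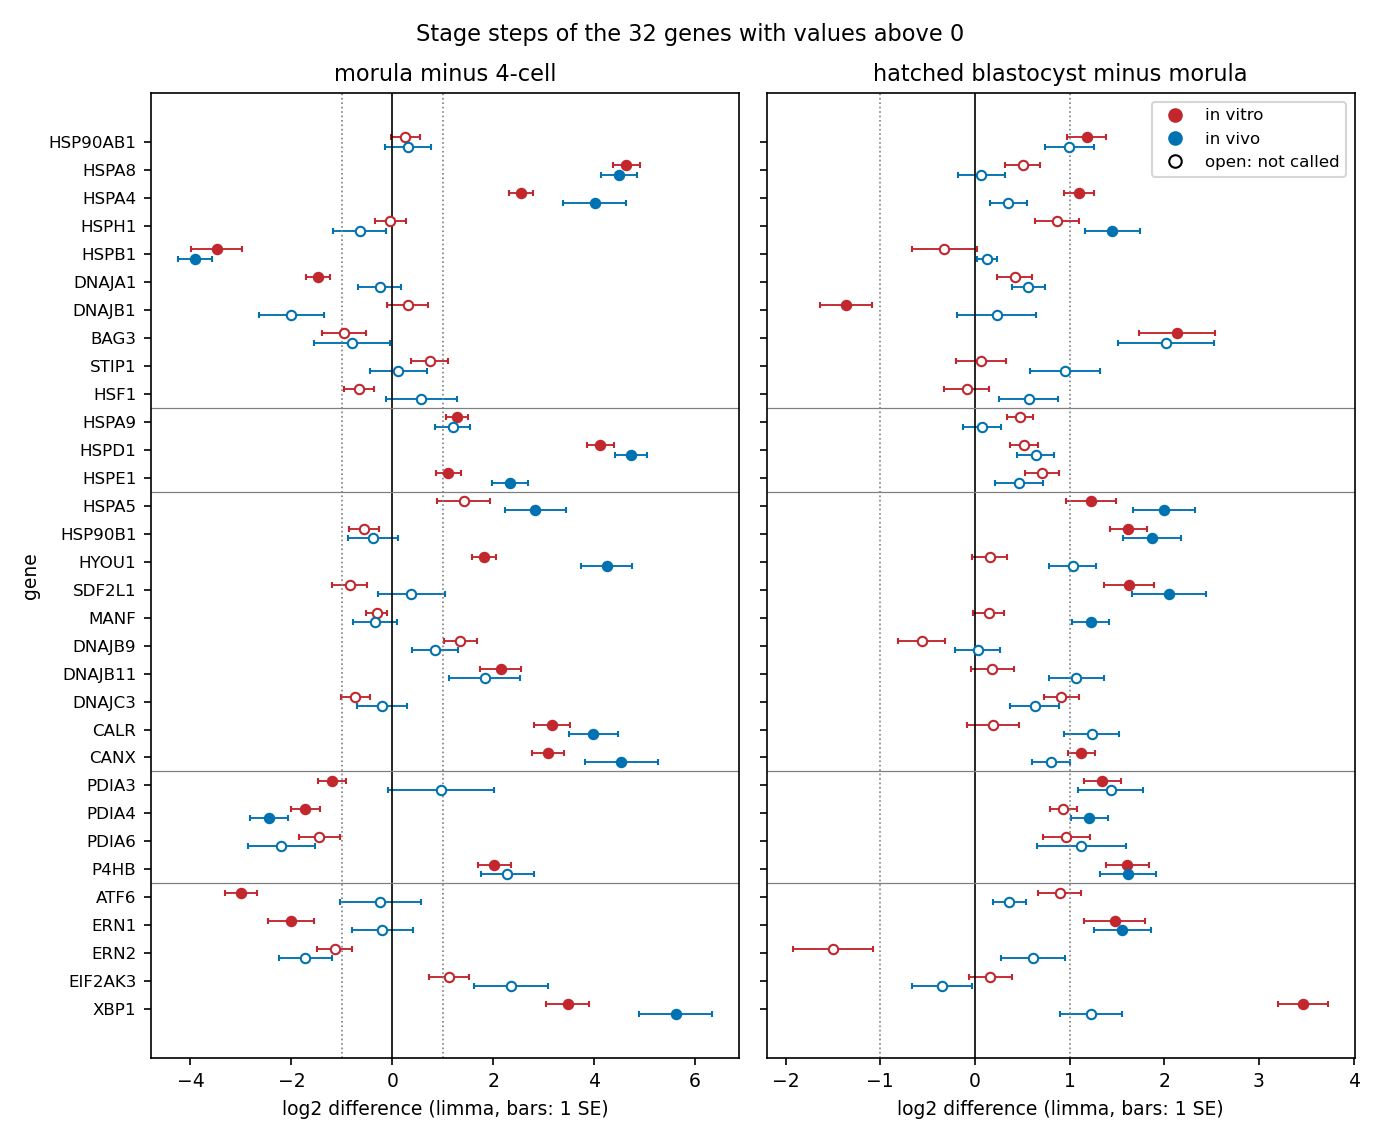
Log2 difference between successive stages for the 32 genes with values, in vitro (red, upper mark) and in vivo (blue, lower mark), with bars of 1 SE from limma. Filled marks were called, dotted lines stand at −1 and 1, and grey lines divide the roles. At the first step HSPA8, HSPD1, CALR, CANX and XBP1 lay above 2 in both sources. At the second step 27 of 32 estimates in vitro and 31 of 32 in vivo were positive (20 and 28 after scaling to the column total).

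At the second step, from the morula to the hatched blastocyst, the ER chaperones HSPA5, HSP90B1 and SDF2L1, the PDI P4HB and the sensor ERN1 were called higher in both sources. In vitro 11 of 32 genes were called higher and 1 lower in hatched blastocysts, against 9.98% and 10.2% of all genes tested. In vivo 8 were called higher and 0 lower, against 5.81% and 3.14%. The 5 genes called in both sources were 5 of 11 in vitro and 5 of 8 in vivo, and the like share over all genes tested was not determined. These counts depended on the scale: with values scaled to the column total, 5 genes were called higher and 2 lower in vitro and 3 higher in vivo, namely HSPA5, HSP90B1 and MANF. That scaling moved the median of all genes tested from −0.11 to −0.24 in vitro, and the median of the 32 genes was then 0.36 in vitro and 0.82 in vivo, against 0.79 and 0.98 on the deposited scale.

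In hatched blastocysts, the stage at which the study compared the sources, ER chaperones were lower in vitro than in vivo. CALR, HSPA5 and MANF were called lower, 3 of 32 genes, and 0 were called higher, when 2.07% of all genes tested were called higher and 2.2% lower. All 10 ER chaperones and all 4 PDIs had estimates below 0. Of the 32 genes 7 had an estimate above 0, against 48.7% of all genes tested. The median log2 difference was −0.76 for the ER chaperones, −0.39 for the PDIs, −0.52 for the mitochondrial chaperones, −0.11 for the cytosolic chaperones and 0.07 for the sensors with XBP1, beside −0.01 for all genes tested.

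CALR (chromosome 2, 66098263 to 66102074), the soluble counterpart of CANX and a store of ER calcium, had 95.7 to 698 CPM in in vitro hatched blastocysts with a median of 440.5, and 728 to 1325 CPM in in vivo hatched blastocysts with a median of 953. The groups did not overlap, the means were 400.1 ± 178 CPM in vitro and 998 ± 229 CPM in vivo (SD, n = 10 each), a 2.50-fold lower level in vitro, and the log2 difference was −1.47 (SE 0.26, adjusted p = 0.000114 by limma). The 2 lowest in vitro embryos were the shallow D3 and E4, and the call held without them. CALR had earlier risen in both sources, with 95.3, 65.5, 19.1, 19.96 and 16.4 CPM in in vitro 4-cell embryos and 184 to 527 CPM in morulae, and with 42.6, 32.6, 12.2, 44.1 and 12.9 CPM in in vivo 4-cell embryos and 102 to 907 CPM in morulae. Its second step was 0.19 in vitro and 1.23 in vivo, a difference of −1.04 (SE 0.42) that was not called (adjusted p = 0.0774 by limma).

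MANF (chromosome 13, 33658279 to 33662218), a secreted ER-resident factor that binds HSPA5, had 140.2 to 313 CPM in in vitro hatched blastocysts with a median of 199, and 320.4 to 733 CPM in in vivo hatched blastocysts with a median of 497. All 10 in vitro embryos lay below all 10 in vivo embryos. The means were 214 ± 62.7 CPM in vitro and 484 ± 110 CPM in vivo (SD, n = 10 each), at a log2 difference of −1.19 (SE 0.16, adjusted p = 3.03e-06 by limma). At the earlier stages MANF had 189 to 354 CPM in in vitro 4-cell embryos and 156 to 260.1 CPM in in vitro morulae, and 61.9 to 424 CPM in in vivo 4-cell embryos and 102 to 331 CPM in in vivo morulae. Its rise to the hatched blastocyst was called in vivo (1.22, SE 0.20) and was 0.15 (SE 0.16) in vitro. The difference of these steps, −1.08 (SE 0.25), had an adjusted p of 0.00181 by limma and was called after scaling to the column total (−1.34) and by DESeq2 (−1.07).

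HSPA5 had 254 to 649 CPM in in vitro hatched blastocysts with a median of 408, and 504 to 1943 CPM in in vivo hatched blastocysts with a median of 1007. Of the in vitro embryos 8 of 10 lay below every in vivo embryo, and E4 and F4, at 649 and 635 CPM, lay above the lowest in vivo embryo, G3 at 504 CPM. The mean was 2.81-fold lower in vitro (413 ± 154 CPM, against 1159 ± 530 CPM in vivo; SD, n = 10 each), and the log2 difference was −1.43 (SE 0.24, adjusted p = 8.13e-05 by limma). In a fit over all 6 groups, which shares 1 estimate of the spread with the more variable early stages, MANF was called, and CALR (adjusted p = 0.00235) and HSPA5 (adjusted p = 0.0262) were not.

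No other ER chaperone or PDI was called. PDIA3 had 169 to 450.2 CPM in vitro and 300 to 745 CPM in vivo, and its log2 difference of −0.90 (SE 0.18, adjusted p = 0.000448 by limma) passed the limit on p but not that on size. At an adjusted p under 0.05 with no limit on size, 8 of 10 ER chaperones and 2 of 4 PDIs were lower in vitro, and 13 of the 32 genes in all, when 12.5% of all genes tested were lower. At that limit 2 of 32 genes, BAG3 (1.33) and XBP1 (0.40), were higher in vitro, against 9.67% of all genes. The lower ER chaperones were HSPA5, MANF, CALR, HYOU1 (−0.83), DNAJB11 (−0.78), SDF2L1 (−0.74), HSP90B1 (−0.63) and CANX (−0.51). The 10 ER chaperones together summed to 2348 to 3690.4 CPM in in vitro hatched blastocysts and to 3710 to 7063 CPM in in vivo hatched blastocysts, so that no in vitro embryo reached the lowest in vivo embryo. HSPD1 (−0.52), HSPE1 (−0.52) and STIP1 (−0.64) were the remaining genes outside the ER that were lower at that limit. Scaling to the column total left the 3 calls in place and the median of the 32 genes at −0.35.

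**Figure D3:**
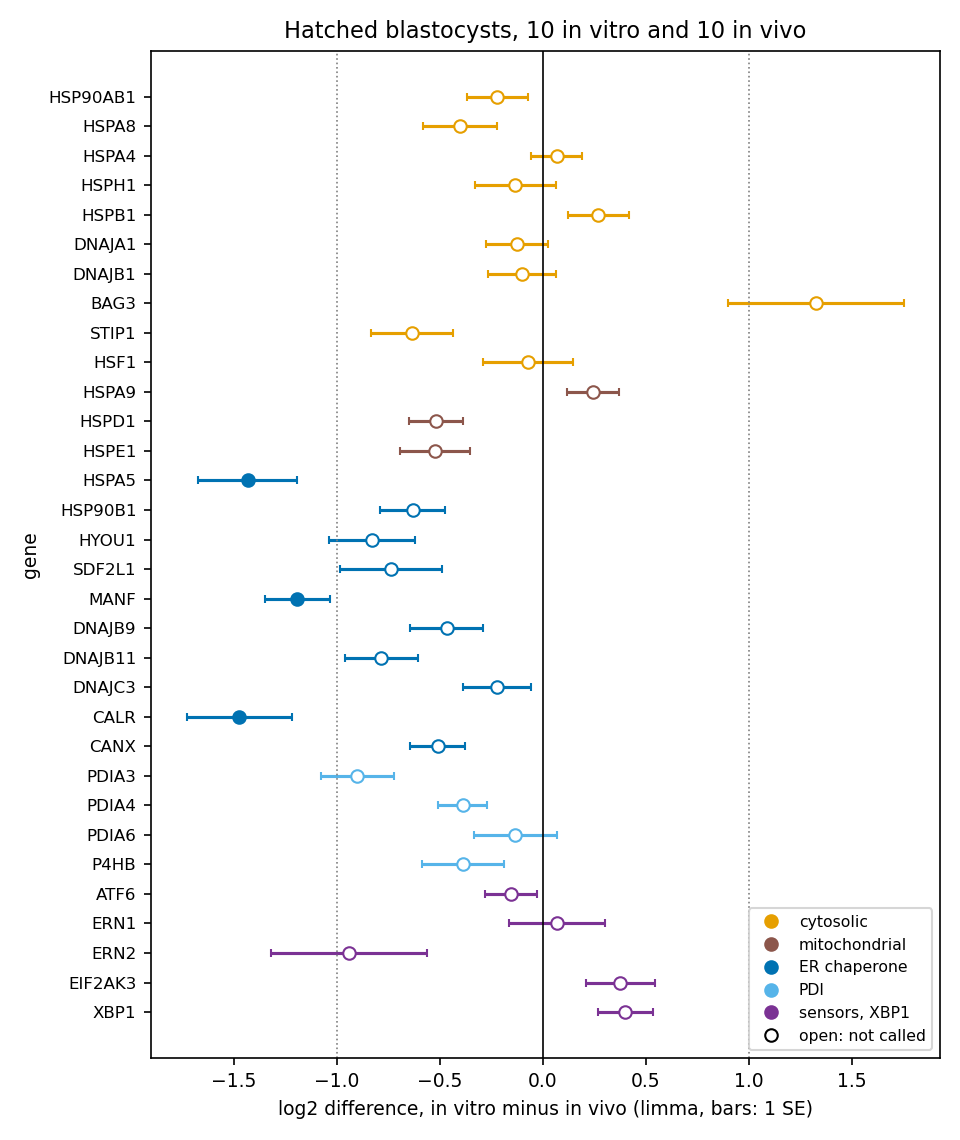
Log2 difference of in vitro from in vivo hatched blastocysts for the 32 genes with values, coloured by role, with bars of 1 SE from limma (n = 10 each). Filled marks were called and dotted lines stand at −1 and 1. All 14 ER chaperones and PDIs lie left of 0, with HSPA5, MANF and CALR beyond −1, while BAG3 lies at 1.33 and XBP1 at 0.40.

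**Figure D4:**
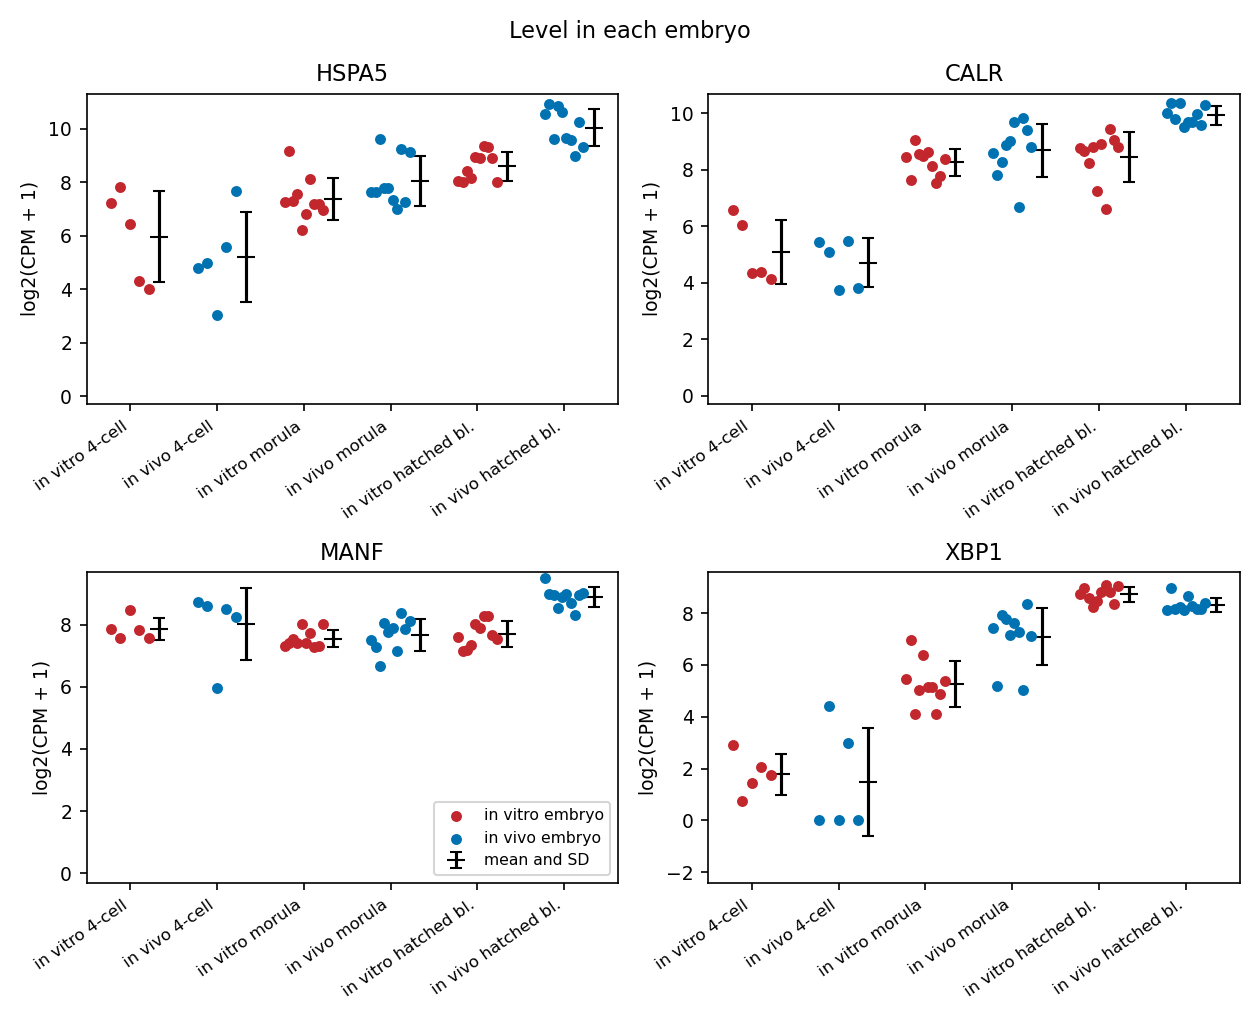
Level of HSPA5, CALR, MANF and XBP1 in each of the 50 embryos as log2(CPM + 1), in vitro (red) left of in vivo (blue) at each stage, with the mean and SD in black beside the points. In hatched blastocysts the in vitro points of CALR and MANF lie below all in vivo points, and in morulae 3 of 10 in vitro points of XBP1 lie below all in vivo points.

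Markers of other cells gave small sums in hatched blastocysts. The 12 trophectoderm markers summed to 7123 to 13934 CPM in vitro and 6246 to 13559 CPM in vivo, with medians of 12464 and 8519 CPM. None of the 12 was at 0 throughout a group, and 0 were called either way. Of their estimates 9 of 12 were above 0, at a median of 0.30. At an adjusted p under 0.05 by limma with no limit on size, 3 were higher in vitro and 0 lower, against 9.67% and 12.5% of all genes tested. Of the 10 cumulus cell, 6 oviduct and 7 blood markers, 4, 1 and 2 were at 0 in every in vitro and 4, 1 and 1 in every in vivo hatched blastocyst. Cumulus cell markers summed to 20.8 to 71.7 CPM in vitro and 50.7 to 111 CPM in vivo, with 1 of 4 tested called lower (FST), oviduct markers to 2.39 to 10.3 CPM and 4.05 to 8.45 CPM, and blood markers to 0.986 to 32.7 CPM and 0.702 to 5.05 CPM. Sperm transcripts, of which 6 of 9 were at 0 in every hatched blastocyst of either source, summed to 32.5 to 62.8 CPM in vitro and 33.7 to 48.6 CPM in vivo. The part of the trophectoderm or of such other cells in the ER result was not tested.

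Among other lists, the ER folding enzymes had a median on the same side, as had the CCT chaperonin and prefoldin list and the ATF6 and XBP1 partners. The list of PERK arm and integrated stress response genes had one on the opposite side. Of 28 other ER folding enzymes and lectins 3 were called lower in vitro and 0 higher, at a median of −0.37. They were MOGS, the glucosidase that trims the first glucose of N-glycans (−1.45), ERP29, a PDI-like escort (−1.34), and DNAJC10, an ER reductase (−1.11), and MOGS and DNAJC10 were lower in all 10 in vitro embryos than in any in vivo embryo. Of 23 translocon and signal peptide genes 1 was called lower, SRPRB, the membrane anchor of the signal recognition particle receptor (−1.04), at a median of −0.25. Of 22 genes of ER associated degradation 2 were called higher and 0 lower, HERPUD2 (1.12) and HERPUD1 (1.0), both of the HERP family that organizes the degradation complex, at a median of −0.14. No gene of the CCT chaperonin and prefoldin list (14 tested), the mitochondrial quality control list (14 tested) or the list of ATF6 and XBP1 partners (14 tested) was called by limma in hatched blastocysts. Of these lists 5, 5 and 7 genes had an unadjusted p under 0.05, against 33.5% of all genes tested. Their medians were −0.25, 0.04 and −0.29, so a median below 0 was not particular to the lists of ER folding genes.

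Of 14 genes of the PERK arm and integrated stress response 6 were called higher in vitro and 0 lower, at a median of 0.97. ATF4, the transcription factor whose translation eIF2 alpha phosphorylation favours, had 331 to 765 CPM in vitro and 126 to 216 CPM in vivo, at a log2 difference of 1.61 (SE 0.14, adjusted p = 3.47e-09 by limma). The pro-apoptotic factor DDIT3 (CHOP) had 52.5 to 193 CPM in vitro and 24.6 to 44.3 CPM in vivo (1.56), and ATF3 had 8.97 to 54.8 CPM in vitro and 1.409 to 6.23 CPM in vivo (2.35). The groups did not overlap for these 3 genes, and the share of all genes tested without overlap was not determined. CHAC1, which degrades glutathione and is induced by ATF4, had 15.8 to 162 CPM in vitro and 0 to 0.351 CPM in vivo (5.56), where the 10 in vivo embryos held 5 reads of it in all. TRIB3 (1.68) and SESN2 (1.23) were the other 2 genes called, and both also were called higher in in vitro morulae (2.11 and 2.73). ATF4, DDIT3 and SESN2 were named after their values had been seen. The sensor of this arm, EIF2AK3, had 10.2 to 19.8 CPM in vitro and 6.95 to 17.1 CPM in vivo and was not called (0.38, SE 0.17, adjusted p = 0.113 by limma). The list also held the eIF2 alpha kinases EIF2AK1, EIF2AK2 and EIF2AK4, none of them called. Their in vivo means were 1.56, 1.09 and 0.999 times the in vitro means. Which kinase, if any, had a part in the higher ATF4 was not tested, so the result is not assigned to PERK.

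**Figure D5:**
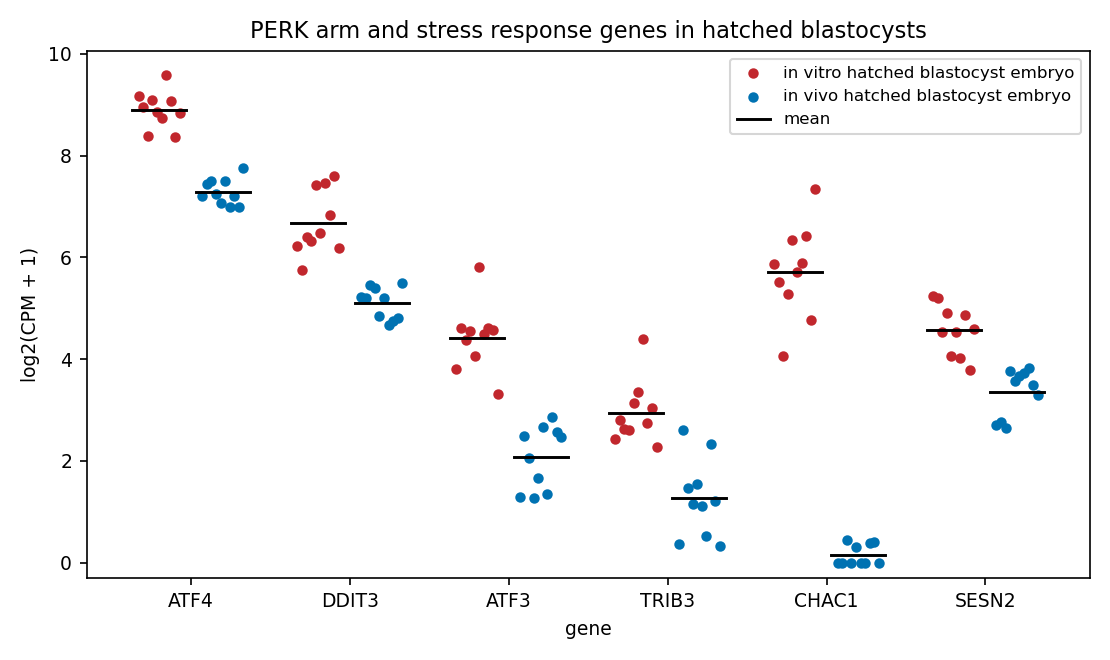
Level of the 6 called genes of the PERK arm and integrated stress response in each hatched blastocyst as log2(CPM + 1), in vitro (red) left of in vivo (blue), with black lines at the means. For ATF4, DDIT3, ATF3 and CHAC1 every in vitro embryo lies above every in vivo embryo, and for TRIB3 and SESN2 the ranges overlap.

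In morulae 0 of 32 genes were called between the sources by limma, when 1.5% of all genes were called higher in vitro and 0.977% lower. Of the 32, 11 had an unadjusted p under 0.05, against 31.0% of all genes tested. XBP1 came closest, with 16.1 to 124 CPM in vitro and 31.5 to 330.4 CPM in vivo and a log2 difference of −1.84 (SE 0.40, adjusted p = 0.00205). It was called without the in vitro morula B2 (−2.03, adjusted p = 0.000650), by edgeR (−1.87) and by DESeq2 (−1.77). Trophectoderm markers were lower in vitro here (5 of 12 called), and oocyte transcripts higher (6 of 11 called), and their part was not tested. The median of the 32 genes was −0.14 on the deposited scale and 0.15 after scaling to the column total, a step that moved the median of all genes from 0.11 to 0.22, so that no direction is given for the genes as a whole. Outside them, HSPB8, a small heat shock protein, was called higher in vitro (3.73) and ERP44, which retains ER proteins in the early secretory pathway, was called lower (−1.45).

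In 4-cell embryos 0 of 32 genes and 0% of all genes were called higher in vitro, and 0% lower, by limma and by edgeR, although 4 of the 32 and 29.2% of all genes had an unadjusted p under 0.05, and DESeq2 called 271 genes and none of the 32. HYOU1 had 13.5, 10.3, 6.05, 10.1 and 6.58 CPM in vitro and 0, 0, 0, 3.23 and 3.24 CPM in vivo, values chosen after they were seen (2.48, SE 0.72, adjusted p = 0.0535 by limma). It was called in a fit over all 6 groups (adjusted p = 5.74e-07). The median of the 32 genes was 0.30, and −0.11 after scaling to the column total, which moved that of all genes from 0.66 to 0.53.

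In the other proteostasis lists more genes were called higher than lower at the first step, when 16% of all genes tested were called higher and 22.7% lower in vitro, and 14.9% and 7.86% in vivo. Of 14 CCT chaperonin and prefoldin genes, which fold actin and tubulin, 9 were called higher and 1 lower in vitro and 8 higher and 0 lower in vivo, led by CCT4 in both sources (5.79 in vitro, 7.26 in vivo). Of 23 translocon and signal peptide genes 16 were called higher and 3 lower in vitro and 15 higher and 0 lower in vivo, among them SRPRB (5.37 in vitro, 7.22 in vivo) and the signal peptidase subunit SEC11C (4.41 in vitro, 7.71 in vivo). Of 14 genes of mitochondrial quality control 7 were called higher in each source, with 1 lower in vitro, and DNAJC19, a cochaperone of the inner membrane import motor, had 4.39 in vitro and 7.37 in vivo. Of 29 other heat shock proteins and cochaperones 12 were called higher and 6 lower in vitro, and 9 higher and 1 lower in vivo, among them PPID, an HSP90 cyclophilin (4.44 in vitro, 6.81 in vivo). At the second step few of these were called: 0 of the CCT list higher and 1 lower in vitro (PFDN6, −1.21), and in vivo none, by limma. In vivo 5 of 14 had an unadjusted p under 0.05, against 36.0% of all genes tested. Of 30 other heat shock proteins 4 were called higher and 4 lower in vitro and 2 higher in vivo, near the 9.98% and 10.2% of all genes called higher and lower in vitro and the 5.81% called higher in vivo, and the HSP70 nucleotide exchange factor BAG2 rose in both (2.46 in vitro, 2.79 in vivo).

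For the genes described here, the spread between embryos of a group was narrowest in hatched blastocysts. The spread over all genes tested was not determined, so this is not read as particular to them. The median coefficient of variation of the genes was 43.8% in vitro and 58.0% in vivo at the 4-cell stage, 35.8% and 70.3% in morulae, and 28.7% and 25.3% in hatched blastocysts. On the log2 scale of the tests the median SD was 0.64 in vitro and 1.10 in vivo at the 4-cell stage, 0.56 and 0.82 in morulae, and 0.41 and 0.33 in hatched blastocysts, so that the in vivo stage with the widest spread depended on the scale. The in vivo 4-cell embryo C1 was the lowest of its group for 18 genes, 10 of the 14 ER chaperones and PDIs among them. The in vivo morula G1 was the highest of its group for 11 of these 14, with 1160 CPM of HSP90B1 and 260.1 CPM of PDIA6 against group medians of 242 and 19.3 CPM, and had 10889 genes above 0, the fewest of the in vivo morulae. Its XBP1, at 31.5 CPM, was the lowest of that group. In in vivo hatched blastocysts G3 was the lowest for 8 of the 14, with a sum of 4234 CPM over them, and D3 the highest for 6, with 8279 CPM.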

How the data were processed

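Single embryos were sequenced by Smart-seq2, and the reads, per the study's methods, were trimmed with Trim Galore, aligned with HISAT2 to the Sus scrofa genome Sscrofa11.1 and normalized with edgeR. Versions, the counting tool, strand and the treatment of reads with several matches are not given in the sources used here. The signal values that the authors deposited are counts per 1000000 reads on the effective library size, so columns sum to 455368 to 1408570. Dividing by the value of 1 read gave whole reads (within 0.1 read) in 49 of 50 embryos and none for the in vivo 4-cell embryo B1, which count tests left out. Depth was 1438600 to 7714790 reads, and floors cover counting error only.

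Groups came from the labels. Later stages were compared with earlier ones within a source, in vitro with in vivo embryos within a stage, and the steps with each other, with limma 3.58.1 (R 4.3.3) on log2(CPM + 1) for genes above 0.5 CPM in at least 1 embryo compared. P-values were adjusted by Benjamini-Hochberg over all genes tested. The scripts were tested on simulated data. Alternatives were edgeR 4.0.16 and DESeq2 1.42.0 on the recovered reads, other pseudocounts, filters, scalings, fits and thresholds, and embryos left out. The 33 members and the 8 further pathway and 6 marker lists were chosen with earlier results of these data known. Values by embryo or group were given for members called between sources in hatched blastocysts or in a difference of steps and for the 3 largest called changes of each step, with up to 3 called genes of each other list. Names outside this rule (HYOU1, ATF6, HSPA4, PDIA3, EIF2AK3 and further genes of the PERK arm and integrated stress response list among them) were added after their values were seen. No genome sequence was used here.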

Additional observations from a re-analysis of the deposited data

Results flagged for a closer look

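Among 191 combinations of a gene and a group, 16 had an embryo apart from the rest of its group by Dixon's criterion, when chance alone flags about 1 in 20, or 9.55. The in vivo 4-cell embryo C1 accounted for 7 of them, as the lowest of its group: it had 66.1 CPM of DNAJA1 (the other embryos 340 to 656 CPM), 2.895 CPM of SDF2L1 (28.3 to 46.4 CPM), 61.9 CPM of MANF (301 to 424 CPM), 10.7 CPM of DNAJC3 (45.2 to 68.6 CPM), 0 CPM of CANX (47.7 to 60.04 CPM), 0 CPM of PDIA3 (221 to 316 CPM) and 0.445 CPM of ATF6 (52.5 to 175 CPM). This embryo also had the fewest genes above 0 of all 50.

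In in vivo hatched blastocysts G3 was lowest for HSPA4 (268 CPM, the others 355 to 405 CPM) and DNAJC3 (33.4 CPM, the others 50.7 to 79 CPM) and highest for HSPB1 (0.935 CPM, the others 0 to 0.29 CPM), and D3 was highest for P4HB (125 CPM, the others 42.5 to 72.6 CPM). In in vitro hatched blastocysts G4 was lowest for HSP90AB1 (614 CPM, the others 1003 to 1392 CPM). In in vitro morulae E2 was lowest for HSF1 (5.26 CPM, the others 13.05 to 23.5 CPM) and EIF2AK3 (3.25 CPM, the others 11.2 to 19.4 CPM), and F1 was highest for HSPB1 (12.7 CPM, the others 0 to 1.306 CPM). In in vivo morulae G1 was highest for CANX (1377 CPM, the others 379 to 691 CPM).

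The step of XBP1 from the morula to the hatched blastocyst differed between in vitro and in vivo embryos by 2.24 on the log2 scale in the test of that difference.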

How the results depend on the processing

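No called change of one of the 32 genes reversed its direction, but their median did under scaling to the column total between sources in morulae (0.15, main −0.14) and in 4-cell embryos (−0.11, main 0.30). Counts of calls that moved by over 1.5 times are given here, all genes first and then the 32 genes. With 1 fit over all 6 groups they were 8055 and 17 for the first step in vivo (main 4521 and 11), 7 of the 32 genes for the second step in vitro (main 12), 3540 and 1 between sources in 4-cell embryos (main 0 and 0), 1013 and 1 in morulae (main 509 and 0), 304 and 1 in hatched blastocysts (main 769 and 3), 2376 and 1 for the difference of the first steps (main 717 and 0), and 504 and 0 for that of the second (main 963 and 1). With edgeR they were 2920 genes for the first step in vivo, 5 of the 32 for the second in vivo (main 8), 1 in morulae and 384 genes for the difference of the first steps. With DESeq2 they were 271 genes in 4-cell embryos, 1354 and 1 in morulae, 1177 genes for the difference of the first steps and 2 of the 32 for that of the second. Scaling to the column total gave 3 of the 32 for the second step in vivo, 7 in vitro and 2 for its difference. At an adjusted p under 0.05 with no limit on size there were 8965 and 18 for the first step in vivo, 12675 in vitro, 4740 and 18 for the second in vivo, 9106 and 22 in vitro, 1147 in 4-cell embryos, 3624 and 7 in morulae, 3979 and 15 in hatched blastocysts, and 4369 and 4, and 4102 and 6, for the differences of the first and second steps. Without the embryos under 2000000 reads the difference of the second steps had 0 of the 32, and without the in vitro morula B2 the sources differed in 1 in morulae. Leaving out single 4-cell embryos gave 526 to 1334 genes (the highest without the in vivo embryo D1) and 0 to 1 of the 32 for the difference of the first steps.

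The split of higher against lower calls over all genes moved by over 10 percentage points with scaling: 1347 and 3114 after scaling to the column total for the second step in vitro (main 2068 and 2113), 534 and 122 for morulae between sources (main 308 and 201), 146 and 345 for the difference of the first steps (main 84 and 633) and 262 and 854 for that of the second (main 384 and 579). By edgeR the splits were 80 and 304 and 406 and 262, and by DESeq2 383 and 794 and 570 and 470, for the differences of the first and second steps, and by edgeR 1547 and 1373 for the first step in vivo (main 2962 and 1559), and by edgeR 817 and 740 and by DESeq2 1063 and 1115 for the second step in vivo (main 1069 and 577).

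The codes that end the embryo names do not pair the embryos: of 5, 8 and 6 shared codes, 0, 2 and 0 pairs correlated above 0.1. With the code as a replicate block, 3 genes were called in morulae, and 0 genes and 0 of the 32 in hatched blastocysts, with HSPA5 at −1.24 (adjusted p = 0.0936 by limma), MANF at −0.91 (0.0797) and CALR at −1.51 (0.110).

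Genes of a few CPM, such as ERN1, HSPB1 and BAG3, rest on few reads in the embryos under 2000000 reads.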
